A study of Saccharomyces cerevisiae with 15 samples.

Results

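The genes described here are 10 genes of inositol and phospholipid synthesis in *Saccharomyces cerevisiae*: *INO1*, *INO2*, *INO4*, *OPI1*, *CHO1*, *CHO2*, *OPI3*, *ITR1*, *CKI1* and *CPT1*. They were chosen by name, with earlier results of these data known, and are 10 of the 6224 genes measured. Each had 1 probe, found through its systematic name: YJL153C for *INO1*, YDR123C for *INO2*, YOL108C for *INO4*, YHL020C for *OPI1*, YER026C for *CHO1*, YGR157W for *CHO2*, YJR073C for *OPI3*, YDR497C for *ITR1*, YLR133W for *CKI1* and YNL130C for *CPT1*. Probe sequences and genome positions were not used here.

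RNA was measured on 15 one-colour arrays, 3 biological replicates for each of 5 conditions, and n is 3 arrays per condition throughout. H cells had no melatonin and were exposed to 2 mM H2O2 for 1 h. MelH and 25MelH cells were grown with 5 and 25 μM melatonin before the same stress, Mel cells were grown with 5 μM melatonin without stress, and Control cells had neither. All cells were of QA23, a commercial wine strain, and were grown in YPD, a rich medium, to exponential phase. The 25 μM dose was given only with stress, and the strain and medium were the same in every condition.

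In yeast, phospholipids are made from phosphatidic acid through CDP-diacylglycerol. Inositol, made by Ino1 or taken up by Itr1, is joined to CDP-diacylglycerol to give phosphatidylinositol, while Cho1 makes phosphatidylserine, which is decarboxylated to phosphatidylethanolamine and then methylated by Cho2 and Opi3 to phosphatidylcholine. A second route, the choline branch, begins with the kinase Cki1 and ends with the transferase Cpt1. Ino2 and Ino4 bind together, as a pair, to an element in the promoters of many of these genes and activate them, and the repressor Opi1, which phosphatidic acid holds at the endoplasmic reticulum, lowers their expression when inositol is plentiful. *INO1* is the gene of the set known for the strongest repression by inositol.

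A level is the log2 intensity of a probe minus that of the 75th percentile of its array, so 0 means the level at that percentile, and levels of different probes are not compared. Before scaling, the 75th percentile lay between 2265 and 3578 units on the 9 arrays with stress and between 4195 and 5938 on the 6 without it. The share of genes with a signal well above background was 86.3% to 91.2% on arrays with stress and 89.5% to 95.3% on the others. The arrays sat on 2 slides, each of which held every condition. The peroxide response genes *TSA2*, *SRX1*, *GPX2* and *TRR1* were higher on all 9 arrays labelled with H2O2 than on all 6 labelled without it. The authors' normalized matrix names 9 of its 15 columns differently from the scanner tables: with its column names, the values below given for Mel would stand for H, those for H would stand for MelH, and those for MelH would stand for Mel. The scanner tables' own labels were used, and the peroxide response genes were high on the arrays that these labels place under stress.

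**Figure D1:**
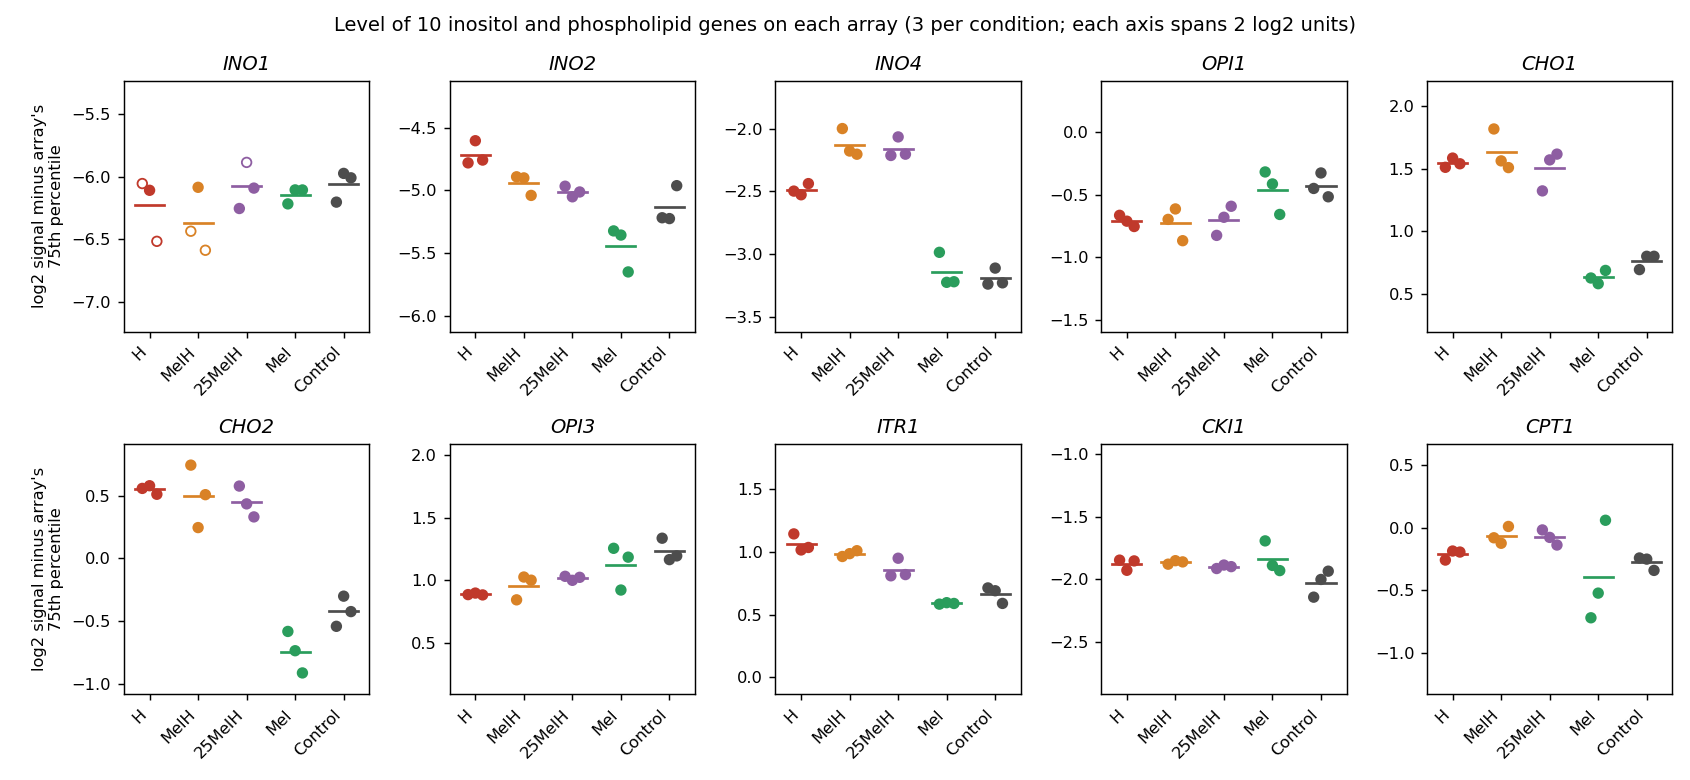
Level of each of the 10 genes on each array, in log2 units relative to the array's 75th percentile, by condition. Points are arrays (3 per condition), lines are condition means, open points are arrays on which the probe was not well above background, and each vertical axis spans 2 log2 units. *CHO1*, *CHO2* and *INO4* were higher on all 9 arrays with stress than on all 6 without it, on this scale; scaled on spike-in probes, the 3 genes were lower in H than in Control cells.

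Among the 10 genes, H cells had higher levels than Control cells of the activator genes *INO2* and *INO4*, of *CHO1* and *CHO2* and of the inositol transporter gene *ITR1*, and lower levels of *OPI1* and *OPI3*. These 7 genes passed the test and 3 did not. In RNA from a whole culture, a change in every cell and a change in some of the cells cannot be told apart. All of these directions are relative to the 75th percentile of the array, and all 5 rises turned into falls when arrays were scaled on spike-in probes. The call was made at an adjusted p under 0.05 in limma, with the Benjamini-Hochberg adjustment over 6221 genes. Of all genes tested, 27.3% rose and 41.1% fell by the same rule, so 5 of 10 rising and 2 of 10 falling are to be read against those shares. The split of calls moved with the scaling, to 6 higher and 1 lower with quantile normalization, 7 and 0 with median centring and 0 and 10 with spike-in scaling. Over all genes, 4080, 4406 and 5953 were called in either direction under these scalings, against 4257 as reported. With spike-in scaling the median change over all genes was −1.51. As reported, the median change over the 10 genes was 0.28 on the log2 scale, against −0.09 over all genes.

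*CHO2*, which carries out the first methylation of phosphatidylethanolamine, had the largest change of the 10 on this scale, though not with quantile normalization, where *INO4* was at 1.22 and *CHO2* at 0.99, or with spike-in scaling, where its change was the smallest. Its levels were 0.56, 0.58 and 0.51 in H cells, against −0.54, −0.30 and −0.43 in Control cells. The H arrays lay close together, and every one of them was above every Control array. The log2 change was 0.97 (SE 0.07, adjusted p 9.62e-05 by limma), a 1.96-fold rise. *CHO1*, the phosphatidylserine synthase gene, had levels of 1.51, 1.58 and 1.54 in H cells, against 0.69, 0.80 and 0.80 in Control cells. Its log2 change was 0.78 (SE 0.05, adjusted p 5.86e-05 by limma), or 1.72-fold, with the groups again apart.

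*OPI3*, the gene of the methyltransferase that follows Cho2 in the same route, moved the other way. It read 0.89, 0.90 and 0.88 in H cells, against 1.34, 1.17 and 1.20 in Control cells. The H values nearly coincided and all lay below the Control values. The change, −0.34 on the log2 scale (SE 0.06, adjusted p 0.00242 by limma), was a 1.27-fold fall. The difference between the *CHO2* and *OPI3* levels of the same array, which subtracting a constant from each array does not alter, was −0.33, −0.32 and −0.37 in H cells, against −1.88, −1.47 and −1.62 in Control cells. The pair was picked after the values had been seen, so the shift of 1.32 log2 units between the conditions is a description and was not tested.

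The activator genes both rose under stress. *INO4* had levels of −2.50, −2.53 and −2.44 in H cells, against −3.24, −3.11 and −3.23 in Control cells. With the groups well apart, its log2 change was 0.71 (SE 0.05, adjusted p 0.000114 by limma), or 1.63-fold. *INO2* read −4.78, −4.60 and −4.76 in H cells, against −5.22, −5.23 and −4.96 in Control cells. The third Control array was the closest to the H arrays, and the change was 0.42 (SE 0.09, adjusted p 0.00836 by limma). Within slide 1 it was 0.44, and within slide 2 it was 0.28, with adjusted p of 0.0548 and 0.126 by limma on fewer arrays.

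The repressor gene *OPI1* had levels of −0.67, −0.71 and −0.76 in H cells, against −0.45, −0.33 and −0.52 in Control cells. The groups did not overlap, and the log2 change was −0.28 (SE 0.06, adjusted p 0.00844 by limma). This fall depended on the scaling, and was −0.19 (adjusted p 0.0623 by limma) with quantile normalization and −0.02 (adjusted p 0.762) when arrays were centred on their median. *OPI3* was likewise no longer called with median centring (−0.09, adjusted p 0.161 by limma), whereas the 5 rising genes were called under quantile normalization, median centring and normexp background correction.

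*INO1*, the gene of inositol-3-phosphate synthase, lay near the detection limit. Its background-subtracted intensity before scaling was between 29.0 and 90.7 units on the 15 arrays. The probe was well above background on 1 of 3 H arrays, 1 of 3 MelH arrays, 2 of 3 25MelH arrays, 3 of 3 Mel arrays and 3 of 3 Control arrays. The levels were −6.06, −6.11 and −6.52 in H cells, against −6.20, −5.97 and −6.01 in Control cells. The groups overlapped, and the change was −0.16 (SE 0.14, 95% interval −0.51 to 0.18, adjusted p 0.336 by limma). With normexp background correction it was 0.41 and passed the test (adjusted p 0.0102 by limma), so neither the direction nor the call for *INO1* holds across these corrections.

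*ITR1*, the major inositol transporter gene, read 1.14, 1.02 and 1.04 in H cells, against 0.71, 0.69 and 0.59 in Control cells. All H arrays were higher than all Control arrays, by 0.40 on the log2 scale (SE 0.06, adjusted p 0.00141 by limma). The second transporter gene, *ITR2*, was lower in H cells (−0.25, SE 0.05, adjusted p 0.00656 by limma). On a single array, the *ITR1* level minus the *ITR2* level was between 1.31 and 1.44 in H cells, against 0.68 to 0.79 in Control cells, a description of a pair picked after its values were seen.

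The ends of the choline branch did not pass the test. *CKI1*, the choline kinase gene, had levels of −1.85, −1.93 and −1.85 in H cells, against −2.14, −2.00 and −1.94 in Control cells. The lowest H array lay just above the highest Control array, and the change of 0.15 (SE 0.07, 95% interval −0.01 to 0.31) missed the threshold with an adjusted p of 0.0867 by limma. *CPT1*, the choline phosphotransferase gene, read −0.26, −0.19 and −0.19 in H cells, against −0.24, −0.25 and −0.34 in Control cells. These ranges overlapped, with a change of 0.06 (SE 0.05, 95% interval −0.05 to 0.18, adjusted p 0.263 by limma). Neither interval holds a change as large as that of *ITR1*, but other scalings moved both genes: *CKI1* passed the test at 0.47 with quantile normalization, 0.41 with median centring and 0.18 with normexp, and *CPT1* at 0.32 with median centring.

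Stress was also compared within cells grown with 5 μM melatonin, MelH vs. Mel, which shares no array with H vs. Control. Here the same 5 genes were called higher, namely *INO2*, *INO4*, *CHO1*, *CHO2* and *ITR1*, and 0 of the 10 were called lower, while 21.2% of all 6221 genes tested rose and 31.5% fell. With spike-in scaling, 2 of the 5 (*INO2* and *ITR1*) were lower in MelH cells and the other 3 were not called. On that scale 5275 genes of the whole array were called in either direction. *CHO2* read 0.74, 0.24 and 0.51 in MelH cells, against −0.58, −0.74 and −0.92 in Mel cells. The MelH arrays varied more than the H arrays, but all were above the Mel arrays, and the log2 change was 1.24 (SE 0.15, adjusted p 0.000616 by limma), or 2.37-fold.

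*INO4* had levels of −2.00, −2.18 and −2.20 in MelH cells, against −2.99, −3.23 and −3.22 in Mel cells. This was a change of 1.02 (SE 0.11, adjusted p 0.000381 by limma), or 2.02-fold, with the groups far apart. *CHO1* read 1.82, 1.56 and 1.51 in MelH cells, against 0.63, 0.58 and 0.69 in Mel cells, a change of 1.00 (SE 0.11, adjusted p 0.0004 by limma). *INO2* rose by 0.50 (SE 0.12, adjusted p 0.0114 by limma) and *ITR1* by 0.40 (SE 0.08, adjusted p 0.00692 by limma), both without overlap of the groups. The *INO2* call was lost with normexp (0.42, adjusted p 0.0724 by limma), and both calls were lost within slide 1 (adjusted p 0.0634 for *INO2* and 0.075 for *ITR1*) and within slide 2 (adjusted p 0.353 and 0.414), on fewer arrays. For *OPI1* (−0.26, 95% interval −0.56 to 0.03) and *OPI3* (−0.16, 95% interval −0.45 to 0.12) the intervals included 0 as well as the values seen in H vs. Control. Over all genes, groups that did not overlap were found for 74.1% in H vs. Control and 63.4% for stress with melatonin, and for 8 and 5 of the 10 genes.

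*CPT1* showed the widest scatter within a condition. Its levels were −0.08, −0.12 and 0.01 in MelH cells, against −0.72, −0.52 and 0.06 in Mel cells. The third Mel array stood above all MelH arrays while the other two lay far below, and the change of 0.33 (SE 0.20) was not called (adjusted p 0.193 by limma). Without the third Mel array it was 0.56 and passed the test (adjusted p 0.00762 by limma), and *OPI1* then passed as well, at −0.36 (adjusted p 0.0365 by limma).

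**Figure D2:**
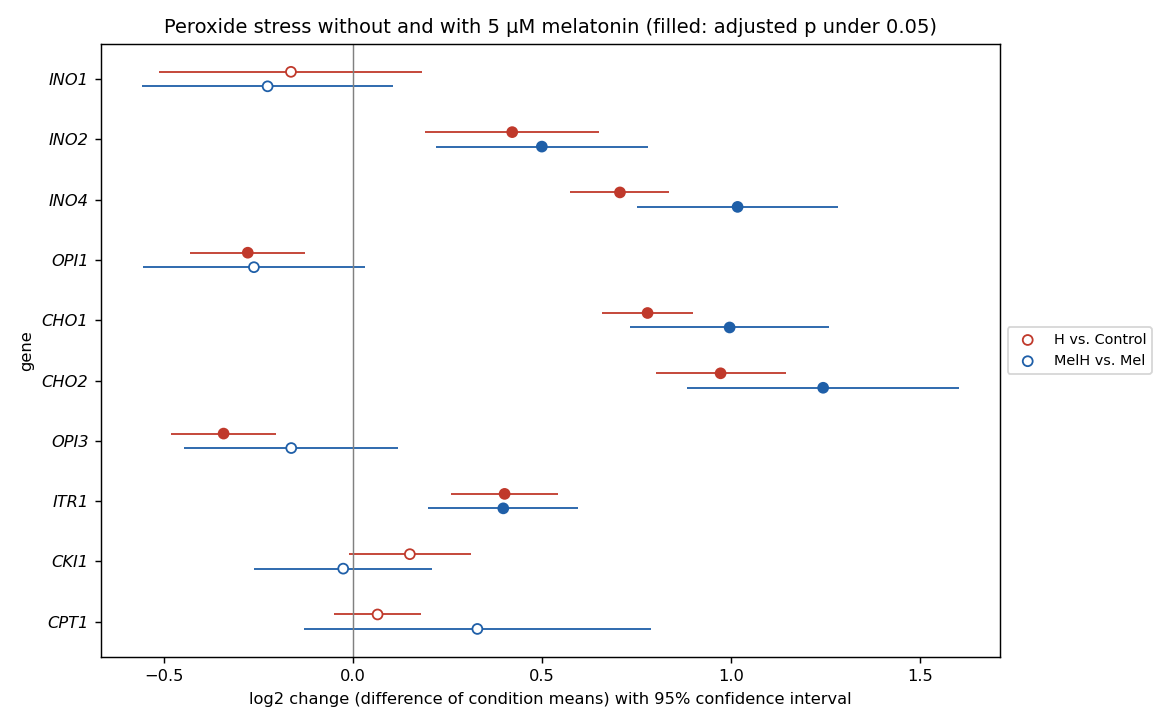
Log2 change of the 10 genes under peroxide stress, without melatonin (H vs. Control, red) and with 5 μM melatonin (MelH vs. Mel, blue), with 95% confidence intervals from limma. Filled points passed an adjusted p under 0.05: 7 genes without melatonin and 5 with it, and on this scale *CHO2* had the largest change in both (0.97 and 1.24), while with quantile normalization *INO4* did (1.22 and 1.49). Changes are relative to the 75th percentile of each array, and with spike-in scaling the rises in H vs. Control became falls.

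Both stressed conditions with melatonin were also set against Control cells. These comparisons share their Control arrays with H vs. Control, so the values are given side by side only. In MelH vs. Control 5 genes were higher (*INO4*, *CHO1*, *CHO2*, *ITR1* and *CPT1*) and 2 lower (*OPI1* and *OPI3*), where 24.7% of all genes rose and 37.6% fell. In 25MelH vs. Control 5 genes (*INO4*, *CHO1*, *CHO2*, *ITR1* and *CPT1*) were again called higher and *OPI1* and *OPI3* lower, where 26.7% of all genes rose and 38.9% fell. With spike-in scaling, each of the 5 rising genes had a change below 0 in both comparisons. All of these were called except *INO4* in MelH vs. Control (−0.21, adjusted p 0.124 by limma). Over all genes, 5933 were called in MelH and 6074 in 25MelH vs. Control on that scale. The split was 7 higher and 1 lower in MelH and 6 and 1 in 25MelH cells with quantile normalization, and 7 and 0 in both with median centring. Over all genes, quantile normalization called 3637 in MelH and 3886 in 25MelH vs. Control in either direction, and median centring 4118 and 4279. With normexp all 7 calls were lost in 25MelH vs. Control, leaving 0 of the 10 genes called, and the smallest adjusted p was 0.0974 by limma, for *CHO2*. This loss was not particular to the 10 genes, as calls over all genes fell from 4079 to 78. *INO4* was 1.07 (SE 0.08) higher in MelH and 1.03 (SE 0.07) higher in 25MelH than in Control cells, and 0.71 higher in H than in Control cells. *CHO1* was 0.86 and 0.74 higher in the same 2 conditions, and *CHO2* was 0.92 and 0.87 higher.

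The smaller calls of these comparisons were lost on leaving out any of 2 or more arrays, so no single array carried them. With each array left out in turn, the *OPI1* call in MelH vs. Control was lost with 4 arrays, *CPT1* with 4 and *OPI3* with 2. For 25MelH vs. Control the numbers were 5 for *ITR1*, 4 for *OPI1*, 3 for *CPT1* and 2 for *OPI3*. In MelH vs. Control, *OPI1* (−0.29), *OPI3* (−0.27) and *CPT1* (0.21) were all lost without the first MelH array, which left 4 genes called. The changes of *OPI1*, *OPI3* and *CPT1* were then −0.31, −0.22 and 0.22. In 25MelH vs. Control, *OPI1* (−0.27), *OPI3* (−0.21), *ITR1* (0.20) and *CPT1* (0.20) were all lost without the second 25MelH array. This left 3 genes called, and the changes of *OPI1*, *OPI3*, *ITR1* and *CPT1* were then −0.28, −0.20, 0.15 and 0.20. Without the first 25MelH array, 4 genes remained called. *INO4*, *CHO1* and *CHO2* were called whichever array was left out. *INO2* was not called in either comparison, with changes of 0.19 (95% interval −0.04 to 0.42) and 0.13 (95% interval −0.08 to 0.33), but without the third Control array it was, at 0.28 (adjusted p 0.0298 by limma) and 0.21 (adjusted p 0.024 by limma).

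Melatonin alone, without stress, gave 0 calls among the 10 genes in Mel vs. Control, where 0.37% of all 6221 genes passed the adjusted test. At an unadjusted p under 0.05, 2 of the 10 were lower in Mel cells, *INO2* and *CHO2*, while 10.1% of all genes passed in either direction. *CHO2* read −0.58, −0.74 and −0.92 in Mel cells, against −0.54, −0.30 and −0.43 in Control cells. All Mel arrays were below all Control arrays, though the first Mel array lay close to the nearest of them, and the change was −0.32 (SE 0.12, adjusted p 0.424 by limma). *INO2* had levels of −5.32, −5.36 and −5.65 in Mel cells, against −5.22, −5.23 and −4.96 in Control cells. Its change was −0.31 (SE 0.13, adjusted p 0.486 by limma), again without overlap. Groups did not overlap for 4 of the 10 genes, against 18.1% of all genes.

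Under stress, the dose of melatonin was 0, 5 or 25 μM in H, MelH and 25MelH cells. In MelH vs. H and in 25MelH vs. H, 0 of the 10 genes and 0% of all genes passed the adjusted test. At an unadjusted p under 0.05, 3 of the 10 passed in MelH vs. H, against 12.4% of all genes, and 5 of the 10 passed in 25MelH vs. H, against 16.2%. The H arrays are common to both comparisons. The step from 5 to 25 μM, 25MelH vs. MelH, gave 0 of the 10 genes at an adjusted and 0 at an unadjusted p under 0.05, where 0% and 1.3% of all genes passed, and the smallest adjusted p among the 10 was 0.999 by limma.

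The 2 partners of the activator lay in opposite directions in melatonin-treated stressed cells. *INO4* was at −2.50, −2.53 and −2.44 in H cells, at −2.00, −2.18 and −2.20 in MelH cells and at −2.21, −2.07 and −2.20 in 25MelH cells. No H array reached the level of any array with melatonin, and the changes were 0.36 (SE 0.07) in MelH vs. H and 0.33 (SE 0.06) in 25MelH vs. H, with adjusted p of 0.319 and 0.183 by limma. *INO2* was at −4.78, −4.60 and −4.76 in H cells, at −4.89, −4.90 and −5.04 in MelH cells and at −4.97, −5.05 and −5.01 in 25MelH cells. Here all H arrays were above all arrays with melatonin, with changes of −0.23 (SE 0.07, adjusted p 0.352 by limma) and −0.30 (SE 0.06, adjusted p 0.187 by limma).

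Within an array, the *INO4* level minus the *INO2* level averaged 2.23 ± 0.13 in H cells, 2.82 ± 0.09 in MelH cells and 2.85 ± 0.12 in 25MelH cells, and 2.30 ± 0.15 in Mel cells against 1.94 ± 0.19 in Control cells (SD, n = 3 each). This is a difference between probes of the same array and its size has no meaning as a ratio of transcripts. Only its shift between conditions is of use, and that was 0.59 in MelH and 0.62 in 25MelH relative to H cells, and 0.36 in Mel relative to Control cells. The lowest array of MelH and 25MelH cells, at 2.72, was above the highest of the other 3 conditions, at 2.43. The pair was singled out after the values had been seen and the shift was not tested. *INO2* lies closer to background than *INO4*, with background-subtracted intensities of 72.4 to 187 units before scaling. In 25MelH vs. H the change of *INO2* was 1.02 (SE 0.97, adjusted p 0.616 by limma) with normexp background correction, against −0.30 as reported. With that correction the second 25MelH array stood apart from all others in its spread of values.

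**Figure D3:**
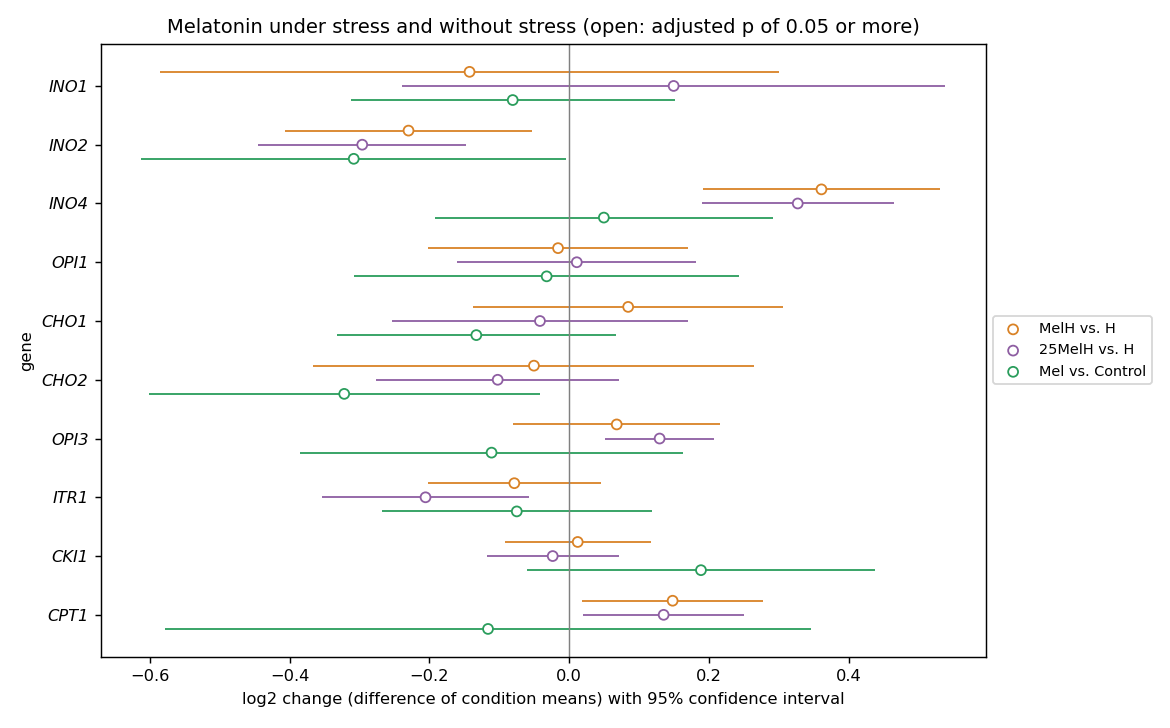
Log2 change of the 10 genes with melatonin under stress (MelH vs. H, orange, and 25MelH vs. H, purple, which share the H arrays) and without stress (Mel vs. Control, green), with 95% confidence intervals from limma. All points are open, as 0 of the 10 genes passed an adjusted p under 0.05 in any of the 3 comparisons, and the intervals of *INO4* lie above 0 under stress (0.36 and 0.33) but not without it (0.05). With spike-in scaling *INO4* in Mel vs. Control was −0.23.

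Other genes gave smaller differences with dose. *ITR1* read 1.14, 1.02 and 1.04 in H cells, 0.96, 0.99 and 1.01 in MelH cells and 0.81, 0.95 and 0.82 in 25MelH cells. The 3 conditions did not overlap, in the order of dose, and the change was −0.08 (SE 0.05, adjusted p 0.566 by limma) in MelH vs. H and −0.21 (SE 0.06, adjusted p 0.237 by limma) in 25MelH vs. H. *CPT1* was 0.15 (SE 0.05) higher in MelH and 0.14 (SE 0.05) higher in 25MelH than in H cells, and *OPI3* was 0.07 and 0.13 higher, none with an adjusted p under the threshold. For *OPI1*, *CHO1* and *CKI1* the changes in both comparisons lay between −0.04 and 0.08. Groups did not overlap for 4 of the 10 genes in MelH vs. H, 5 in 25MelH vs. H and 2 in 25MelH vs. MelH, against 21.4%, 25.2% and 5.59% of all genes.

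The contrast (MelH − H) − (Mel − Control), fitted on 12 arrays, asks whether melatonin acted differently with and without stress. It passed the adjusted test for 0 of the 10 genes, against 0.338% of 6218 genes, and an unadjusted p under 0.05 for 1 of the 10, against 9.83%. That gene was *INO4*, with a difference of 0.31 (SE 0.12, 95% interval 0.05 to 0.57, adjusted p 0.417 by limma). For *CHO2* the difference was 0.27 (95% interval −0.12 to 0.66) and for *INO2* it was 0.08 (95% interval −0.25 to 0.41), so intervals of this width leave differences of either sign possible.

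Taking the 5 conditions together, the order of the levels differed between genes. For *CHO1* and *CHO2* the 3 stressed conditions came first and did not separate from each other, and Control came next, above Mel. For *INO4* the order was MelH, 25MelH, H, Mel and Control, in which MelH did not separate from 25MelH nor Mel from Control. *INO2* ran from H through MelH, 25MelH and Control to Mel, and only H and Mel separated from their neighbours. For *OPI1* and *OPI3* the order began with Control and Mel, and no neighbours separated for either gene. *INO1* likewise had no neighbours that separated, and it varied over 0.70 log2 units across the 15 arrays, against 1.66 for *CHO2*.

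To see how far the changes extended through lipid metabolism, 45 further genes in 8 role groups were examined in H vs. Control. Of these, 8 were higher, 26 lower and 11 not called, with a median change of −0.27, against 27.3% higher, 41.1% lower and a median of −0.09 over all genes. With spike-in scaling the median over all genes was −1.51, so the directions below are again relative to the 75th percentile. In the group of fatty acid synthesis genes that Ino2 and Ino4 also regulate, 4 of 4 rose: *ACC1*, the acetyl-CoA carboxylase gene, by 0.88 (SE 0.04), *FAS2* by 0.80 (SE 0.06), *ACS2* by 0.78 (SE 0.08) and *FAS1*, which encodes the other fatty acid synthase subunit, by 0.37 (SE 0.05). *ACC1* levels lay between 4.03 and 4.10 in H cells, against 3.14 to 3.22 in Control cells.

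In contrast, all 5 genes of inositol and phosphatidylinositol metabolism were lower in H cells. *PLC1*, the phospholipase C gene, was lower by a log2 change of −1.23 (SE 0.05, adjusted p 2.24e-05 by limma), and *GIT1*, the glycerophosphoinositol permease gene, by −1.48 (SE 0.20, adjusted p 0.0012 by limma), although its probe was well above background on only 1 of 3 H arrays. The other 3 were the inositol monophosphatase gene *INM1* (−1.09), the phosphatidylinositol synthase gene *PIS1* (−0.46) and *ITR2*. In the group for phosphatidic acid and CDP-diacylglycerol, with 12 genes, 10 were lower, 1 was higher and 1 was not called. Not all of the 12 act in supply, as the group also holds genes for the removal of phosphatidic acid, such as *PAH1* and *NEM1*. The count is thus no measure of supply. *TAM41*, the mitochondrial CDP-diacylglycerol synthase gene, had the largest change of the 45 genes (−2.06, SE 0.09), with levels of −3.77 to −3.47 in H cells, against −1.54 to −1.50 in Control cells. *NEM1*, which encodes the phosphatase that activates Pah1, changed by −1.42 (SE 0.12), while *PAH1*, the phosphatidic acid phosphatase gene itself, was the 1 that rose (0.21, SE 0.06).

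In the choline and ethanolamine branch 4 of 5 genes were lower, led by *PCT1*, which encodes the enzyme that acts between Cki1 and Cpt1 (−0.54, SE 0.06), and the ethanolamine kinase gene *EKI1* (−0.38, SE 0.06). Of the 6 genes of phospholipid turnover 5 were lower, among them the phospholipase D gene *SPO14* (−0.74, SE 0.04) and *NTE1*, whose enzyme deacylates phosphatidylcholine (−0.61, SE 0.05). The remaining groups were mixed. Among 6 regulators, *UME6*, a DNA-binding repressor, rose by 0.92 (SE 0.08), *IRE1*, the sensor of unfolded proteins in the endoplasmic reticulum, fell by 1.01 (SE 0.07), and 4 were not called. Of the phosphatidylserine decarboxylase genes *PSD2* rose by 0.27 (SE 0.04) and *PSD1* was not called, and of 5 cardiolipin genes *GEP4* rose by 0.26 and *TAZ1* fell by 0.35.

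In MelH vs. Mel, 5 of the 45 genes were higher and 19 lower, with a median of −0.30, against 21.2% higher, 31.5% lower and a median of −0.07 over all genes. All 5 genes of the inositol group were again lower. *TAM41* changed by −2.03 (SE 0.15) and *ACS2* by 1.05 (SE 0.11), and 3 of the 4 fatty acid synthesis genes were called higher. The counts were 8 higher and 24 lower in MelH vs. Control, where 24.7% of all genes were higher and 37.6% lower. They were 7 higher and 25 lower in 25MelH vs. Control, which shares the Control arrays, where 26.7% of all genes were higher and 38.9% lower. In Mel vs. Control, MelH vs. H, 25MelH vs. H, 25MelH vs. MelH and the contrast between melatonin effects 0 of the 45 passed the adjusted test by limma, and at an unadjusted p under 0.05 the numbers were 3, 3, 5, 1 and 1, against 10.1%, 12.4%, 16.2%, 1.3% and 9.83% of all genes.

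**Figure D4:**
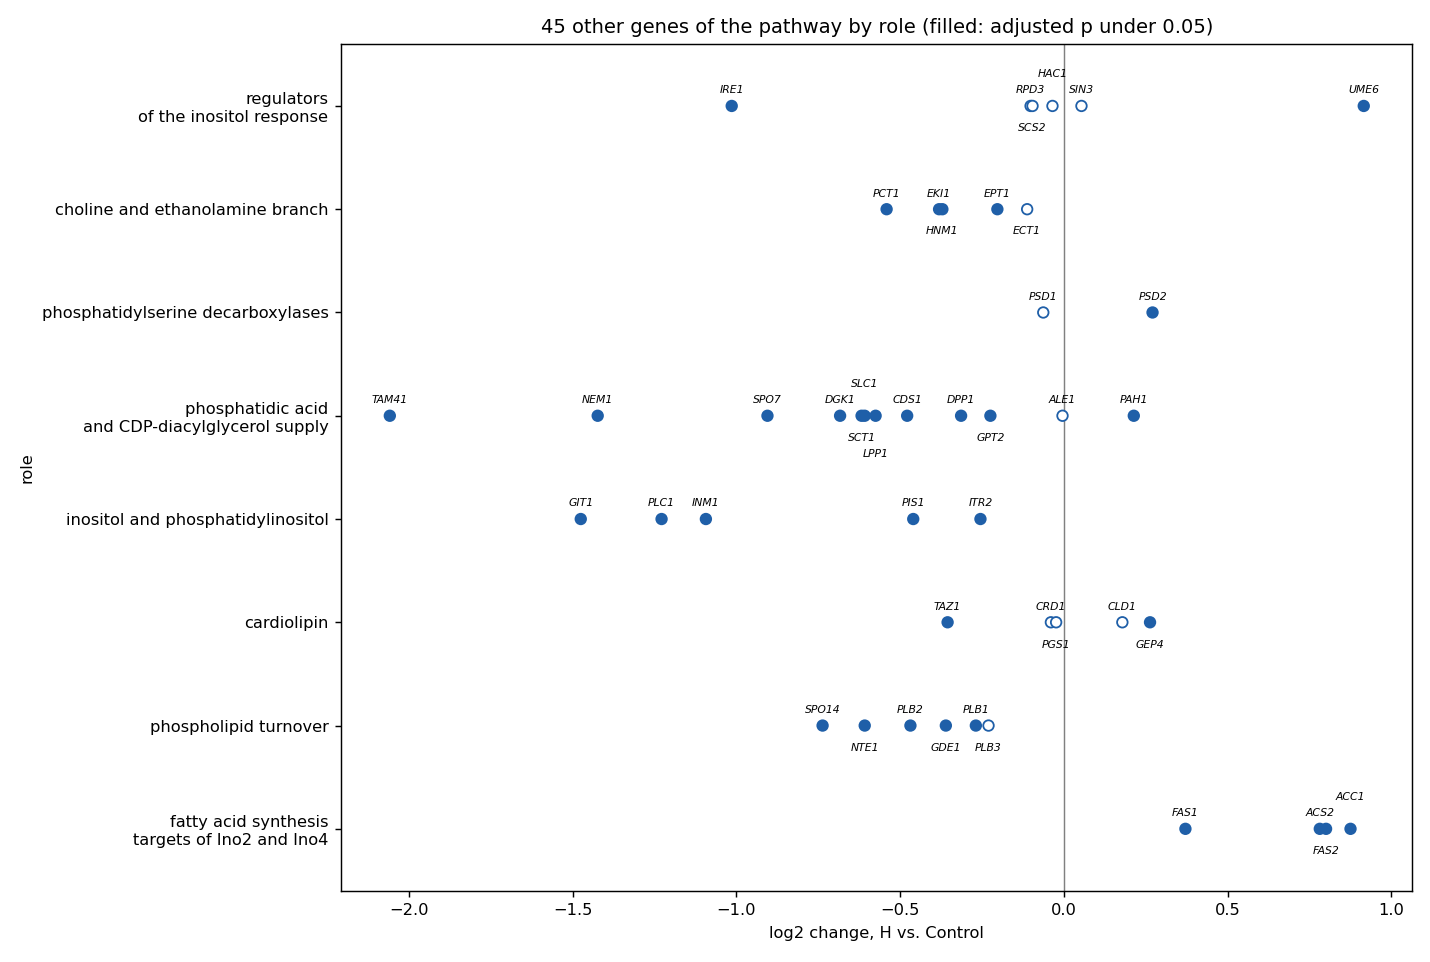
Log2 change in H vs. Control of 45 further genes of lipid metabolism, 1 row per role group. Filled points passed an adjusted p under 0.05 (8 higher and 26 lower); all 4 fatty acid synthesis genes lie right of 0 (0.37 to 0.88), and all 5 genes of inositol and phosphatidylinositol lie left of it (*ITR2* at −0.25 to *GIT1* at −1.48). The scale is relative to the 75th percentile of each array, and with spike-in scaling the median over all genes was −1.51.

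The sign of many of the stress changes depended on the scaling of the arrays, although *OPI1* and *OPI3* were below 0 in H vs. Control under all 5 scalings. In H vs. Control the median change over all genes was −0.09 as reported, 0.07 with quantile normalization, 0.17 with median centring, 0.07 with normexp background correction and −1.51 when arrays were scaled on 7 spike-in probes, whose RNA is added to each sample in a fixed amount. On the spike-in scale all 10 genes were lower in H than in Control cells, from −0.45 for *CHO2* to −1.77 for *OPI3*. Measured from the median of all genes, *CHO2* was 1.06 above it as reported, *CHO1* 0.87, *INO4* 0.80, *INO2* 0.51 and *ITR1* 0.49. *OPI1* was 0.19 and *OPI3* 0.25 below it. Median centring and spike-in scaling give the same distances by arithmetic, as each subtracts a constant from every array and so moves all genes equally. The median on the spike-in scale was −1.06 in MelH vs. Mel, −1.36 in MelH vs. Control and −1.65 in 25MelH vs. Control, so the total signal per spike-in was lower in all stressed conditions. The basis of this shift was not tested.

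**Figure D5:**
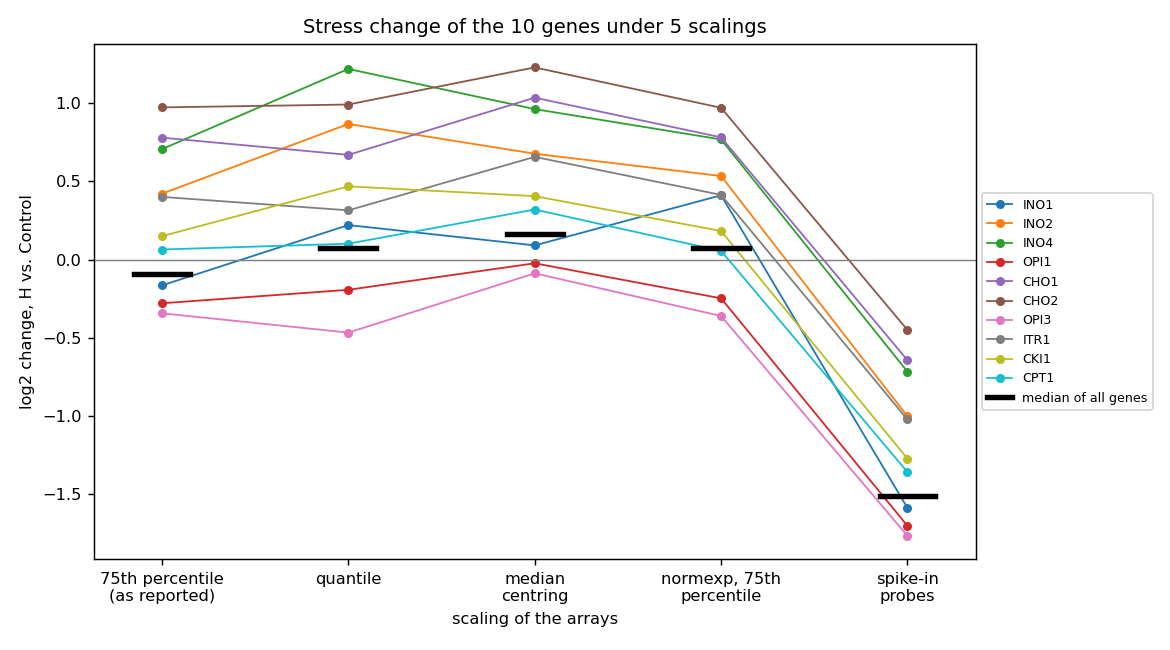
Log2 change of the 10 genes in H vs. Control under 5 scalings of the arrays, with the median of all genes as a black bar. The 5 genes that rose lie above the median bar under all 5 scalings, but with spike-in scaling the bar is at −1.51 and all 10 genes lie below 0.

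Over the whole array, the genes with condition means most like those of *INO1* were YNL018C, *SPO11*, *UGX2*, *TIM23* and YDR445C.1. Each gene's 5 condition means were centred on their own average, and the Euclidean distances to *INO1* were 0.096 to 0.134 log2 units, in a profile whose own largest deviation was only −0.19. *SPO11* was well above background on 3 of 15 arrays. The centred mean of *OPI3* in H cells was −0.15, against 0.33 for *CHO1* and 0.48 for *CHO2*. The average profile of *CHO1*, *CHO2* and *OPI3* thus does not describe *OPI3*. Nearest to that average were *HAM1*, *SUA5*, *UTP11*, *PIM1* and *UTP13*, at distances of 0.046 to 0.052. These 10 genes were named by their rank in distance over 5 condition means and by no other property.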

How the data were processed

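The study hybridised RNA from 15 cultures of QA23 to one-colour arrays. The authors deposited, array by array, Feature Extraction output (version 12.0.1.1), from which the background-subtracted intensity, on a linear scale, was used. They also deposited a matrix on the log2 scale, centred per probe on its median over arrays. Of its 15 columns 6 equal the scanner values of the same name (lowest r 0.9997 over 6256 probes) and 9 equal those of another sample (next highest r 0.902). It served only as an alternative, with columns paired to the scanner values they equal.

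Control spots and 1 to 84 spots per array marked as non-uniform or population outliers were left out, and 0 spots were saturated. Both replicate spots of each probe were then averaged on the log2 scale, and the array's 75th percentile was subtracted, the normalization that the study's methods name. The probe with the highest mean was kept per gene, which dropped 32 probes. A probe was well above background where all its retained spots were marked so. The arrays' number, 3 per condition, limits the precision.

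Pairs of conditions were compared on their 6 arrays with lmFit and eBayes of limma 3.58.1 under R 4.3.3 (with jsonlite 2.0.0 and version 1.17.8 of data.table), in two-sided tests, and p-values were adjusted by Benjamini and Hochberg across the genes fitted. The fit was tested on simulated data. The 10 genes and the role lists were chosen with earlier results of these data known. Named besides the 10 were up to 2 called genes with the largest change in each role group in H vs. Control, any pathway gene called with melatonin (there were 0) and the 5 nearest genes per profile. *ACS2*, *FAS1*, *INM1*, *PIS1*, *ITR2*, *PAH1* and *PSD1*, and the label check on 4 peroxide response genes, were added after the values were seen. The alternatives were other scalings, normexp with an offset of 50, on the median signal because the tables used hold no mean signal, a filter on dim probes, the slide or replicate number as a block, each slide alone, all 15 arrays in 1 fit, and leaving out each array. Same-numbered arrays deviated together in Mel vs. Control (r 0.106 to 0.280) and MelH vs. H (r 0.143 to 0.307), in all 3 pairs, and in 0 to 2 of 3 pairs elsewhere, a pairing that no label states.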

Additional observations from a re-analysis of the deposited data

How the results depend on the processing

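Of 428 recomputed values of the 26 called changes, 342 kept direction and call, 68 kept the direction only and 18 reversed. The reversals were 17 with spike-in scaling, plus *OPI3* in 25MelH vs. Control with median centring (0.054). Both scalings move every gene of a comparison by the same amount, and the basis of that shift was not tested.

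With spike-in scaling, values with a new sign in H vs. Control were −1.001 for *INO2*, −0.72 for *INO4*, −0.64 for *CHO1*, −0.45 for *CHO2*, −1.02 for *ITR1*, −1.27 for *CKI1* and −1.36 for *CPT1*. In MelH vs. Mel they were −0.50 for *INO2*, −0.60 for *ITR1* and −0.67 for *CPT1*. In MelH vs. Control they were −1.09 for *INO2*, −0.21 for *INO4*, −0.41 for *CHO1*, −0.36 for *CHO2*, −0.96 for *ITR1*, −1.12 for *CKI1* and −1.07 for *CPT1*, and in 25MelH vs. Control −1.45 for *INO2*, −0.54 for *INO4*, −0.83 for *CHO1*, −0.70 for *CHO2*, −1.38 for *ITR1*, −1.44 for *CKI1* and −1.37 for *CPT1*. With normexp, *INO1* in H vs. Control was 0.41 and was called. Of 1129 recomputed values of changes that were not called as reported, 107 changed sign, 8 of them with a call. Another 32 kept their direction and became called.

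The number of the 10 genes called in H vs. Control, 7, was 3 within slide 1 and 7 to 8 on leaving out an array. In MelH vs. Mel, 5 became 3 within slide 1, 3 within slide 2, and 5 to 7. In MelH vs. Control, 7 became 4 to 8, and in 25MelH vs. Control, 7 became 0 with normexp, 4 within slide 1, and 3 to 6. The slides alone hold fewer arrays, and slide 2 alone could not be fitted for MelH, 25MelH and Control cells against each other, which have 1 array each there. With normexp the second 25MelH array had a 75th percentile 0.60 above its median, against 1.40 to 1.65 on the others. Calls over all genes in 25MelH vs. Control fell from 4079 to 78 with that correction. In the other 5 comparisons 0 genes were called under every alternative run. With 1 array of a condition on a slide, or 2 arrays left in a condition, the spread was pooled.

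With the replicate number as a block, the count stayed at 7 for H against Control cells and at 5 for MelH vs. Mel, and was 5 in MelH vs. Control, where *OPI3* and *CPT1* were lost, and 5 in 25MelH vs. Control, where *OPI1* and *ITR1* were lost. This block was an alternative only, and no reported comparison was fitted as paired. In MelH vs. H and Mel vs. Control, where same-numbered arrays deviated together, the block changed no call among the genes described here.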
